A study of Homo sapiens with 12 samples.

Results

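Cells carrying the 5xA mutant of AGO2 were compared with cells carrying wild-type AGO2. Both lines are HCT116, a human colorectal carcinoma line, in which AGO2 had been knocked out and then given back as an FH-tagged protein, so every library on either side shares the knockout background and the tag. The labels name the genotypes FH-AGO2_5xA and FH-AGO2_WT; they are called FH-5xA and FH-WT here. Members were chosen by genotype alone: 3 FH-5xA and 3 FH-WT libraries, 6 of the 12 libraries in the series, with 3 parental and 3 AGO2_KO (knockout) libraries as controls. Each library came from its own well, seeded with 500000 cells and harvested after 48 h, and held total RNA depleted of ribosomal RNA. Each genotype is a single line. The sources used here do not say whether a line is a clone or which promoter drives the FH-tagged protein. The tests therefore measure the spread between wells within lines. A difference between the proteins cannot be told apart from a difference between the lines that carry them.

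AGO2 is the Argonaute protein that microRNAs load into; the microRNA's seed pairs with short matches in the 3′ untranslated region (UTR) of an mRNA, and Argonaute recruits the GW182 (TNRC6) scaffold, which brings deadenylases that shorten the poly(A) tail and lead to decay. Argonaute proteins carry a cluster of phosphorylated residues near the C terminus, and in the 5xA mutant residues of that cluster are replaced by alanine. Casein kinase 1 alpha (CSNK1A1) and a protein phosphatase 6 complex (PPP6C with ANKRD52) are known to add and remove these phosphates. The series asks which transcripts differ between cells given back the wild-type and the mutant protein.

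No deposited table held this contrast. The difference was taken per gene as the log2 fold change of FH-5xA against knockout minus that of FH-WT against knockout, which cancels the knockout libraries. Its standard error (SE) was rebuilt from the fold changes and likelihood ratio scores of the 5 tables of group comparisons. The spread estimate behind it was taken to come from the authors' fit over all 4 groups, parental and knockout libraries included. The squared ratio of difference to SE was tested as a chi-square with 1 degree of freedom, and a gene was called when its p, adjusted by the Benjamini-Hochberg method over 15072 genes, was under 0.05. All differences below are FH-5xA minus FH-WT on the log2 scale, ± SE, with 3 libraries per group. Levels are fitted group levels in CPM (counts scaled to library size), computed from the deposited mean expression and fold changes; values per library were not analysed here, so neither the overlap of single libraries nor the depth of each can be given. Mean expression in CPM is not per length, so levels are compared within a gene and not between genes.

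The metallothioneins MT2A, MT1E and MT1X were lower in FH-5xA. The epithelial genes CDH1, ELF3, MARVELD3 and EHF were higher. The mesenchymal genes VIM and ZEB1 were lower, but the 10 measured mesenchymal genes had a median of 0.00. That median was -0.10 when differences were centred within bins of GC content and length. Of 25 measured genes of the microRNA pathway 0 passed the test, where 4.11% of all genes did. Genes with seed matches for broadly expressed microRNA families were not shifted apart from genes with matches for tissue-restricted families. In all, 620 genes were called, 4.11% of those tested, 299 higher in FH-5xA (1.98%) and 321 lower (2.13%). Most differences were small: the median absolute difference of called genes was 0.43, and 20 reached 1 in size, 14 higher and 6 lower. With an F distribution with 1 and 8 degrees of freedom as the reference in place of the chi-square, the smallest Benjamini-Hochberg adjusted p was 0.358 and 0 genes were called, while 1892 had an unadjusted p under 0.05 (2909 with the chi-square). That reference also lowered the calls of FH-WT against knockout from 1516 to 86 and of FH-5xA against knockout from 1699 to 92. Comparisons with parental cells kept most of their calls, going from 6695 to 4902 for the knockout, 5180 to 3195 for FH-WT and 6602 to 4799 for FH-5xA. Every call below between FH-5xA and FH-WT therefore holds for the chi-square reference, which treats each gene's variance as known, and not for the F reference.

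**Figure D1:**
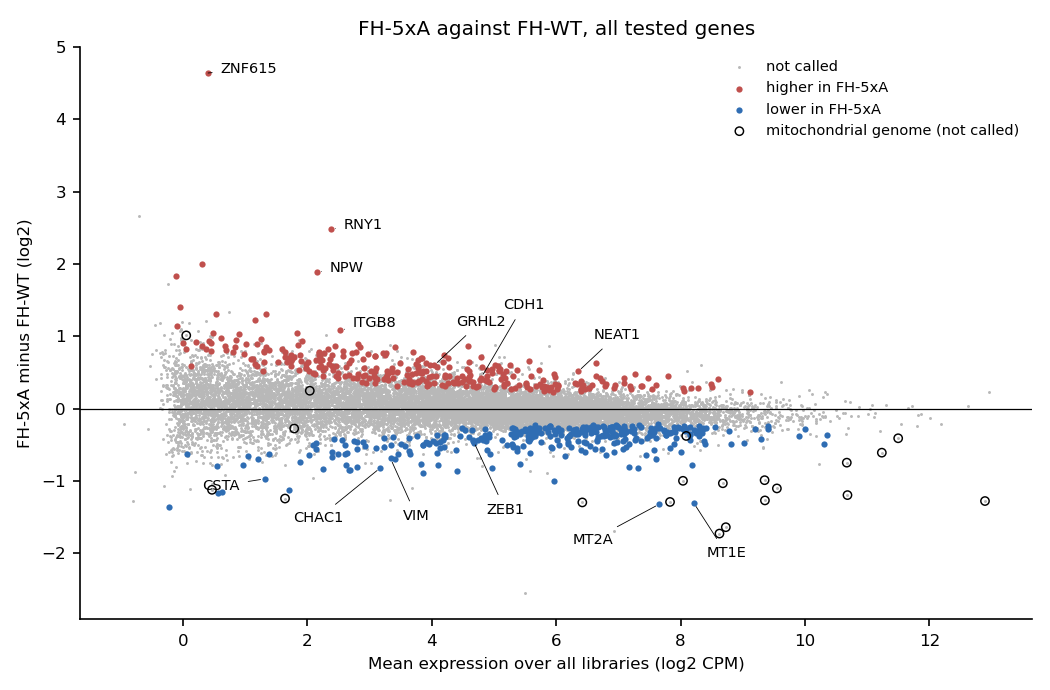
Difference between FH-5xA and FH-WT (log2) against mean expression over all libraries (log2 CPM), 1 point per tested gene. Called genes are red where higher and blue where lower in FH-5xA; ZNF615 at 4.64 and RNY1 at 2.48 lie highest among called genes, MT2A at -1.32 and MT1E at -1.30 lie among the lowest called genes, and open circles mark genes of the mitochondrial genome, none of them called.

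AGO2 RNA was measured first, as the check of the labels. Its fitted level was 205 CPM in parental cells, 161 in the knockout, 270.1 with FH-WT and 267 with FH-5xA. Both reconstituted lines were thus above the knockout, and they differed from each other by -0.02 ± 0.07 (adjusted p = 0.92). The RNA level does not measure the protein. Of 25 measured genes of the microRNA pathway, 0 were called in either direction, against 4.11% of all genes. A list of this size would hold few calls at that share, so their absence says little. The median difference was -0.02 beside 0.01 over all genes. Below 0 lay 14 genes and above it 11, and 3 had an unadjusted p under 0.05 by the chi-square test. AGO1 was at 0.01 ± 0.08, AGO3 at 0.04 ± 0.07 and AGO4 at 0.04 ± 0.11. AGO1 changed sign when differences were centred on the median of all genes or within bins of GC content and length. The GW182 genes lay at -0.11 ± 0.08 for TNRC6A, 0.10 ± 0.08 for TNRC6B and -0.04 ± 0.12 for TNRC6C. For the kinase CSNK1A1 the difference was -0.09 ± 0.07 and for the phosphatase scaffold ANKRD52 it was -0.06 ± 0.13. The 2 core genes nearest the threshold, DICER1 at -0.20 ± 0.08 and PPP6C at -0.23 ± 0.09, each had an adjusted p of 0.11. Of 29 mRNA decay factors 1 was called, beside the same 4.11% of all genes. This was the cap-binding protein gene EIF4E2, which fell by 0.44 ± 0.11 (112 CPM with FH-WT and 82.3 with FH-5xA).

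MicroRNA targets were examined through the seeds. The mature sequences of 5 microRNAs are shown: those of the let-7, miR-17, miR-19 and miR-200 families, whose target sites are printed below, and miR-31, whose host transcript was called; capitals mark the seed, bases 2 to 8, and the sequences are from RefSeq.
let-7a-5p: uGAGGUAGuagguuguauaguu
miR-17-5p: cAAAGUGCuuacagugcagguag
miR-19b-3p: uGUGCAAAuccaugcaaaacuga
miR-200c-3p: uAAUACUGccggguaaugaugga
miR-31-5p: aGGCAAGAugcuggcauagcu

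Matches to 22 broadly expressed seed families and to 7 families restricted to muscle, liver, brain or blood cells were located in the longest annotated 3′ UTR of 11629 protein-coding genes. A match was a 7-base complement of bases 2 to 8, with or without the A opposite base 1. The median difference was 0.01 over all these genes and 0.00 over the 2008 genes with no match to any broad family. Over the genes matching a broad family, the medians ran from -0.01 for miR-200bc to 0.05 for miR-24, with a middle value of 0.01. Families restricted to other tissues ran from 0.01 to 0.03, inside that range, so matches of broad families were not set apart from matches of restricted ones. Levels of the microRNAs in these cells were not examined. In the authors' deposited tables of FH-WT against knockout, medians ran from -0.07 to -0.03 over broad families and from -0.06 to -0.04 over restricted ones. For FH-5xA against knockout the authors' deposited table gave -0.07 to 0.00 and -0.05 to -0.01. These values describe sets of genes that overlap widely and share their libraries, and no test was made of them. The median 3′ UTR was 331 bases long over genes with no broad match and 3086 bases over genes with a let-7 match, and transcript length itself moved with the difference (below); its part here was not tested.

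**Figure D2:**
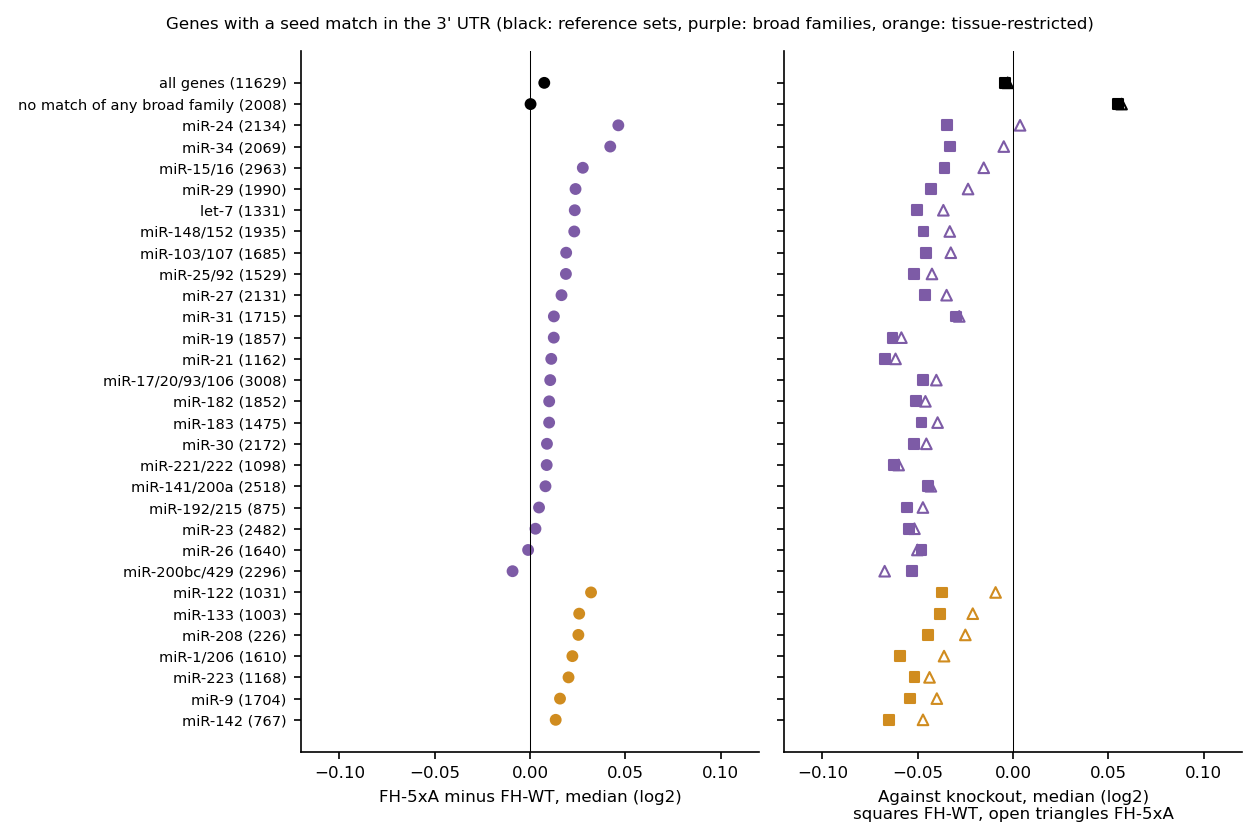
Median over genes with a 3′ UTR seed match, 1 row per microRNA family with the number of genes in brackets; left, FH-5xA minus FH-WT, and right, FH-WT (squares) and FH-5xA (open triangles) against knockout, all log2. Purple broad families (-0.01 to 0.05) and orange tissue-restricted families (0.01 to 0.03) overlap on the left; black marks all genes and genes with no broad match.

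Single called genes with matches to these families went either way. ZEB1, QKI, HMGA2, F3 and ARRDC3 are textbook targets from the lists, whereas ITGB8 was named for its large rise and is on no target list. Sites are shown 5′ to 3′ on the transcript strand, at most 30 bases each, with the match in capitals, so that the pairing with the seeds above can be read.
ZEB1, miR-200bc, chr10:31527622-31527651 (+): ttttatcttatCAGTATTAtcactcttatg
ZEB1, miR-200bc, chr10:31528566-31528595 (+): ttcaaacctggCAGTATTAatacccttctt
QKI, miR-200bc, chr6:163573223-163573252 (+): gccttggttctCAGTATTAtcattctttat
HMGA2, let-7, chr12:65963302-65963331 (+): acgttcgatttCTACCTCAgcagcagttgg
F3, miR-17 family, chr1:94529545-94529574 (-): ctttacaatctGCACTTTAactgacttaag
ITGB8, miR-17 family, chr7:20410217-20410246 (+): gtgtcgttgtaGCACTTTActgtaatatat
ARRDC3, miR-19, chr5:91371062-91371091 (-): tgatttgaaaaTTTGCACAtgctcaatgct
Coordinates are GRCh38, and all lie in 3′ UTRs of GENCODE 29 transcripts.

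Lists of textbook targets had few calls in any family, where 4.11% of all genes were called in either direction. Of 26 measured miR-17 family targets, 2 were called higher and 1 lower, with a median of 0.05. Coagulation factor III (F3, tissue factor) stood at 43.3 CPM in parental cells, 105 in the knockout, 82.1 with FH-WT and 106.9 with FH-5xA, a rise of 0.38 ± 0.08 (adjusted p = 0.000821), and the transcription factor STAT3 rose by 0.23 ± 0.07 (57.9 and 68.2 CPM). RBL1, the pocket protein p107, fell by 0.34 ± 0.08 from 40.9 to 32.2 CPM. F3 and RBL1, both textbook targets of the family, thus moved in opposite directions. Against knockout, 12 of the 26 targets were called lower with FH-WT and 8 with FH-5xA in the authors' deposited tables, where 5.85% and 6.24% of all genes were.

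Of 23 let-7 targets, only HMGA2, the fetal chromatin protein with 4 let-7 matches in its principal 3′ UTR, was called. Its fitted level was 245 CPM in parental cells, 468 in the knockout, 334 with FH-WT and 274 with FH-5xA. HMGA2 fell by 0.28 ± 0.08 between FH-WT and FH-5xA (adjusted p = 0.022), with the mutant line the nearer of the reconstituted lines to the parental level. Among 18 miR-19 targets the arrestin-domain gene ARRDC3 alone was called, at -0.33 ± 0.08. Among 21 miR-200 targets 3 were called, all lower, against 2.13% of all genes. These were ZEB1, the RNA-binding protein gene QKI at -0.33 ± 0.10 and the Notch ligand JAG1 at -0.22 ± 0.07. The principal JAG1 3′ UTR held matches for miR-34 but none for miR-200bc. The median of the miR-200 list did not fall: it was 0.02, with 11 members above 0 and 10 below. The list's mean weighted by the inverse of each squared SE was -0.08. The other families had 0 to 2 calls each: PTCH1 (0.59 ± 0.15) and ANLN (-0.28 ± 0.08) of 25 miR-15/16 targets, COL1A1 (0.79 ± 0.23) of 21 miR-29 targets, JAG1 again of 23 miR-34 targets, and 0 of 23 miR-21 targets by the chi-square test (3 at an unadjusted p under 0.05), which ran from -0.18 to 0.45. Of 23 microRNA host transcripts 1 was called, beside 4.11% of all genes. This was MIR31HG, the host of miR-31, at 0.96 ± 0.26 (1.08 CPM in FH-WT, 2.09 in FH-5xA and 2.11 in the knockout).

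Of 26 measured epithelial genes, 8 were called higher in FH-5xA, against 1.98% of all genes, and 0 lower; 24 were above 0 and the median was 0.33 beside 0.01 over all genes. E-cadherin (CDH1), the adhesion molecule of epithelial junctions, had a fitted level of 49.1 CPM in parental cells, 25.05 in the knockout, 15.8 with FH-WT and 21.3 with FH-5xA. FH-WT was lowest of the 4 groups, and the difference of 0.43 ± 0.10 had an adjusted p of 0.00197. ELF3, an epithelial ETS factor, ran at 33.1, 31.4, 22.9 and 31.4 CPM in the same order, so that FH-5xA stood with the knockout and FH-WT below both (0.46 ± 0.10, adjusted p = 0.000942).

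The tight junction gene MARVELD3 differed by 0.46 ± 0.11, but here FH-WT (13.6 CPM) stood with the knockout (13.2) and FH-5xA (18.8) was closer to parental cells (29.03). EHF, another ETS factor, showed a further pattern: 1.32 CPM in parental cells, 6.38 in the knockout, 1.59 with FH-WT and 2.83 with FH-5xA, a difference of 0.83 ± 0.20. The other 4 called members, named after their values were seen, were TJP3 (0.71 ± 0.20), a junction scaffold, GRHL2 (0.60 ± 0.15), a regulator of epithelial identity, SPINT2 (0.43 ± 0.12), a serine protease inhibitor, and ESRP1 (0.33 ± 0.10), an epithelial splicing regulator. GRHL2 remained far below parental cells in both lines, at 3.56 CPM with FH-WT and 5.40 with FH-5xA against 51.8. EPCAM (0.06 ± 0.07), KRT8 (0.05 ± 0.16) and KRT18 (0.08 ± 0.08) were not called. With differences centred within bins of GC content and length, the list's median was 0.21 and 7 members were called; the median GC content of its transcripts was 56.8%, against 47.8% over all genes.

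Of 10 measured mesenchymal genes 2 were called, both lower in FH-5xA, against 2.13% of all genes, with a list median of 0.00. Members above 0 numbered 4 and those below 5, and the highest stood at 0.37. The mean weighted by the inverse of each squared SE was -0.12, and the median centred within bins of GC content and length was -0.10. Against knockout, 3 of the 10 were called lower with FH-WT and 6 with FH-5xA in the authors' deposited tests, where 5.85% and 6.24% of all genes were. Whether the list moved as a whole thus depends on the summary used. Vimentin (VIM), an intermediate filament of mesenchymal cells, ran at 2.40 CPM in parental cells, 13.9 in the knockout, 14.9 with FH-WT and 9.23 with FH-5xA, and fell by 0.69 ± 0.15 (adjusted p = 0.002). ZEB1, a repressor of E-cadherin and target of miR-200, ran at 8.03, 32.1, 35.6 and 26.1 CPM and fell by 0.45 ± 0.09 (adjusted p = 0.000244). In both genes FH-WT stood with the knockout, FH-5xA was lower, and both lines remained above parental cells. The principal ZEB1 3′ UTR holds 6 matches for miR-200bc, of which 2 are printed above.

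**Figure D3:**
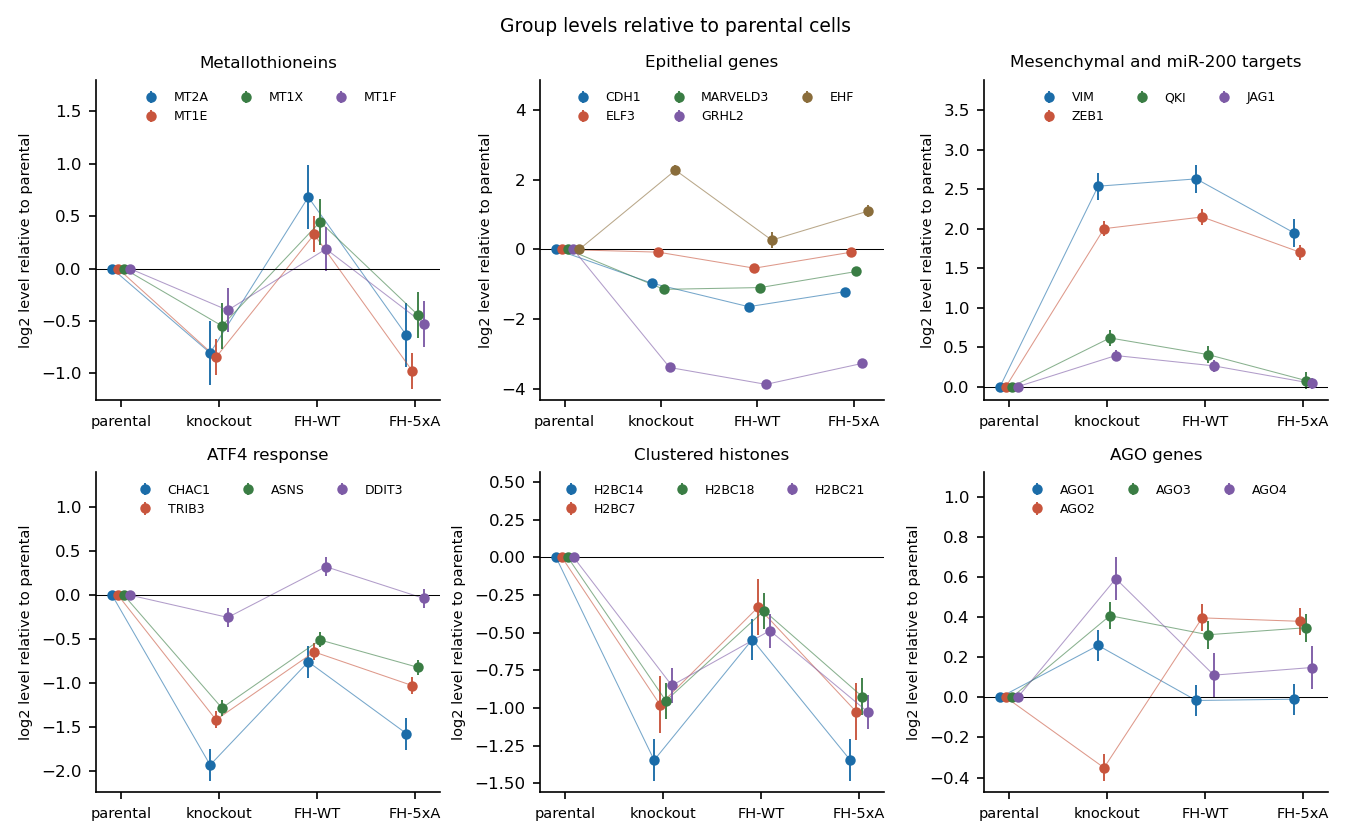
Fitted level of each group relative to parental cells (log2), with bars for the SE of the fold change in the deposited tables; parental cells are 0 by construction. The 4 metallothioneins are high only in FH-WT among the knockout-derived lines, VIM and ZEB1 are above parental cells in all 3 and lowest of these in FH-5xA, and the AGO genes have near-equal levels in FH-WT and FH-5xA.

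Metallothioneins, small cysteine-rich proteins that bind zinc and copper, had the lowest median of the nuclear gene groups examined. This list was drawn up after the values were seen. Of 4 measured, 3 were called lower, against 2.13% of all genes, and the median was -1.10. MT2A ran at 212 CPM in parental cells, 121 in the knockout, 340 with FH-WT and 137 with FH-5xA. MT1E ran at 358, 199, 448 and 182 CPM in the same order, and MT1X at 15.3, 10.5, 20.8 and 11.2. In all 3, FH-WT was the highest group and FH-5xA stood with the knockout. The differences were -1.32 ± 0.31 for MT2A, -1.30 ± 0.17 for MT1E (adjusted p = 5.86e-10) and -0.89 ± 0.22 for MT1X. MT1F, at -0.71 ± 0.23, did not pass (adjusted p = 0.0506). In the authors' deposited tables FH-WT against knockout was 1.49 for MT2A, 1.17 for MT1E and 0.99 for MT1X, while FH-5xA against knockout was 0.17, -0.13 and 0.10, none of these last 3 called. The 4 genes are near neighbours of like sequence on chromosome 16, so how reads were split among them is uncertain.

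Metallothionein genes are switched on by the zinc-sensing factor MTF1 through short metal response elements. The promoters of MT2A and MT1X are printed because these genes moved together; capitals mark matches to TGCACNC or TGCGCNC on either strand, from 250 bases before to 50 after the start (RefSeq, GRCh38.p14).
MT2A, chr16:56608334-56608633 (+): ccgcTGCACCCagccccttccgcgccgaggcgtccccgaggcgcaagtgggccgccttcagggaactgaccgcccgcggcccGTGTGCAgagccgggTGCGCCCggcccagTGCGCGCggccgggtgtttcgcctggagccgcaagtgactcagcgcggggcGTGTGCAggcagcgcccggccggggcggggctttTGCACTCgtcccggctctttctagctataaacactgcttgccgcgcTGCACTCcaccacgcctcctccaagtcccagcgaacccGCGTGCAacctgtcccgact
MT1X, chr16:56682220-56682519 (+): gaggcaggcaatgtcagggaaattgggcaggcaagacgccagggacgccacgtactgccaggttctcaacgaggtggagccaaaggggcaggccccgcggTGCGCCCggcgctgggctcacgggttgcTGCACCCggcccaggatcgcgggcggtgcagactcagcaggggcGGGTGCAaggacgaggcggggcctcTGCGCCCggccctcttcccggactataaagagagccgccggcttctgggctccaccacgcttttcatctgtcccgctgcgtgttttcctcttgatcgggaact
The MT2A window holds 8 matches and the MT1X window 4. Of 35116 promoters of the same length, 29.6% hold at least 1 match, 0.601% at least 4 and 0.0199% at least 8. A match is a description of the letters and does not show binding.

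The ATF4 pathway and the unfolded protein response are programs that cells raise when amino acids run short or proteins misfold in the endoplasmic reticulum. Of 30 measured genes, 5 were called lower in FH-5xA, against 2.13% of all genes, and 0 higher; 21 were below 0 and the median was -0.12. CHAC1, which degrades glutathione, had a fitted level of 16.5 CPM in parental cells, 4.31 in the knockout, 9.74 with FH-WT and 5.53 with FH-5xA, a fall of 0.82 ± 0.19 (adjusted p = 0.00273). TRIB3, an inhibitor of ATF4 signalling, fell by 0.38 ± 0.10 and asparagine synthetase (ASNS) by 0.31 ± 0.08. In all 3 the knockout was lowest, FH-WT stood between the knockout and parental cells, and FH-5xA between the knockout and FH-WT. Of the 30 genes, 12 were called higher against knockout with FH-WT and 8 with FH-5xA in the authors' deposited tables, where 4.21% and 5.04% of all genes were. The stress factor DDIT3 (CHOP) ran at 18.3, 15.3, 22.9 and 17.8 CPM and fell by 0.36 ± 0.11. The remaining called member, the chaperone CALR, fell by 0.37 and was named after its values were seen.

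Histone mRNAs of the replication-dependent clusters end in a stem loop rather than a poly(A) tail. Of 21 in the histone list and measured, 2 were called lower in FH-5xA, against 2.13% of all genes, and 0 higher, with a median of -0.22. Over all 39 measured clustered histone genes, a list drawn up after the values were seen, 6 were called lower, 0 higher, and 33 were below 0. H2BC14 ran at 232 CPM in parental cells, 91.3 in the knockout, 159 with FH-WT and 91.3 with FH-5xA, a fall of 0.80 ± 0.14 (adjusted p = 8.06e-06). H2BC21 ran at 330, 183, 235 and 162 CPM and fell by 0.54 ± 0.11. In both, FH-5xA stood with the knockout and FH-WT between the knockout and parental cells. The other called members were H2AC14 (-0.77 ± 0.24), H2BC7 (-0.70 ± 0.19), H2BC18 (-0.57 ± 0.12) and H2BC11 (-0.43 ± 0.13). Histone genes are near-identical copies, so how reads were split among them is uncertain. E2F cell cycle genes had a median of -0.09 with 25 of 32 below 0, but only the replication licensing gene CDC6 was called (-0.21 ± 0.07).

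Of 27 measured hypoxia genes, 5 were called higher in FH-5xA, against 1.98% of all genes, and 0 lower; 22 were above 0 and 5 below, with a median of 0.14. BHLHE40, a hypoxia-induced repressor, ran at 9.34 CPM in parental cells, 30.8 in the knockout, 22.3 with FH-WT and 32.7 with FH-5xA (0.56 ± 0.12, adjusted p = 0.000772). Again FH-5xA stood with the knockout. The glycolytic aldolase gene ALDOC (0.39 ± 0.12), the mitophagy gene BNIP3 (0.37 ± 0.11) and the histone demethylase gene KDM3A (0.30 ± 0.08) were also called, as was INSIG2, named after its values were seen. Of 16 WNT target genes, 4 were called higher, also against 1.98% of all genes, and 0 lower; 11 were above 0 and 5 below, with a median of 0.17. SOX9, an intestinal crypt factor, rose by 0.54 ± 0.11 (33.5 CPM in FH-WT, 48.6 in FH-5xA and 44.9 in the knockout), and the secreted WNT antagonist DKK1 by 0.41 ± 0.11 (437 and 580 CPM, both above 282 in the knockout). PRDM1 rose by 0.78 ± 0.24 and the feedback inhibitor NKD1 by 0.36 ± 0.10.

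Immediate early genes, the first transcripts induced by growth factors, were mixed, with 3 of 30 called higher and 1 lower. Over all genes the shares were 1.98% and 2.13%. The orphan nuclear receptor NR4A3 rose by 1.15 ± 0.30 from 0.693 to 1.54 CPM, IER2 by 0.53 ± 0.16 and PHLDA1 by 0.28 ± 0.08, whereas the ERK phosphatase DUSP6 fell by 0.27 ± 0.08. Of 31 p53 targets 1 was called (FDXR, 0.48 ± 0.15), and of 19 YAP targets 2, including F3, beside 4.11% of all genes. None of 16 NF-kB genes, 23 interferon-stimulated genes or 30 cytosolic ribosomal protein genes was called by the chi-square test, with medians of 0.01, -0.05 and -0.08 and with 2, 2 and 5 genes at an unadjusted p under 0.05.

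**Figure D4:**
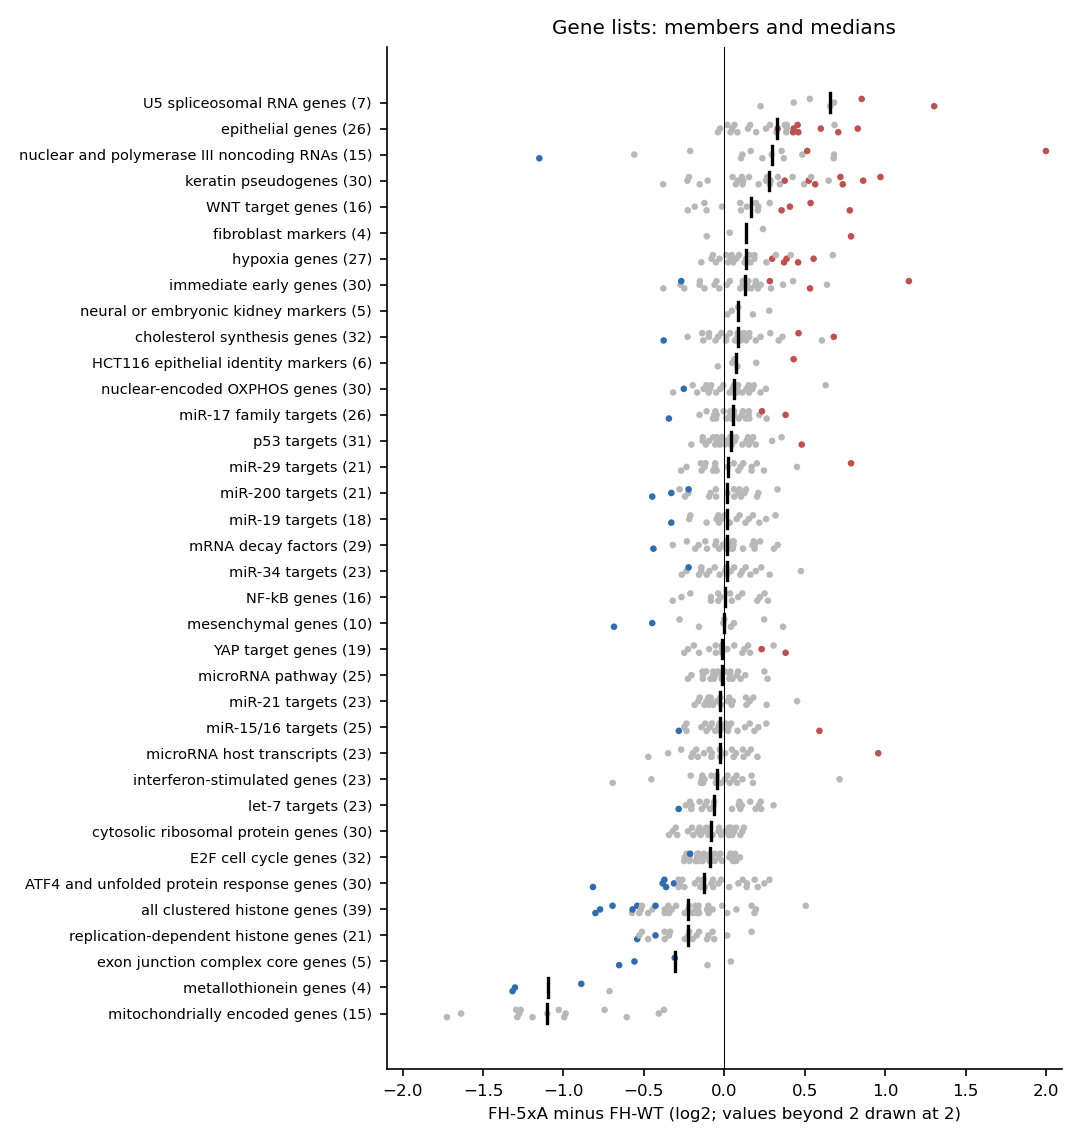
Differences between FH-5xA and FH-WT (log2) for the measured members of each gene list with at least 4, the number measured in brackets. Red points were called higher, blue points lower, grey points not called, and the black bar is the list's median, from -1.10 for mitochondrially encoded genes to 0.66 for U5 spliceosomal RNA genes; RNY1 is drawn at the edge.

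Among single genes outside these groups, the largest rise among called genes was in ZNF615, a zinc finger gene on chromosome 19. It ran at 5.01 CPM in parental cells, 0.119 in the knockout, 0.006 with FH-WT and 0.148 with FH-5xA. Since every knockout-derived line was close to 0, the fitted difference of 4.64 ± 1.20 depends on how the model treats near-zero counts and is not a measured fold. The integrin beta 8 gene ITGB8, whose product activates latent TGF-beta, ran at 14.7 CPM in parental cells, 4.17 in the knockout, 1.36 with FH-WT and 2.89 with FH-5xA. It rose by 1.09 ± 0.21 (adjusted p = 0.000206) and remained below parental cells in both lines. NPW, the neuropeptide W precursor, rose by 1.89 ± 0.48 (2.12 to 7.85 CPM), the RING finger gene RNF208 by 1.31 ± 0.37, the mitochondrial fission gene MTFP1 by 1.23 ± 0.32 and the cytochrome P450 gene CYP4F12 by 1.04 ± 0.27. These were low-level genes, with fitted levels of 1.30 CPM for MTFP1 and 0.863 CPM for CYP4F12 in FH-WT.

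Outside the metallothioneins, the largest falls among called genes of at least 1 CPM were in SNORD11B (-1.16 ± 0.33), a small nucleolar RNA gene, RNU4ATAC (-1.15 ± 0.24), a minor spliceosome RNA gene, and an unnamed processed pseudogene, ENSG00000249774 (-1.12 ± 0.22; 3.30 CPM with FH-WT and 1.52 with FH-5xA). Cystatin A (CSTA), a cysteine protease inhibitor, ran at 7.11 CPM in parental cells, 0.513 in the knockout, 1.53 with FH-WT and 0.779 with FH-5xA and fell by 0.97 ± 0.28. SNRPF, which encodes a core protein of spliceosomal snRNPs, ran at 173, 133, 214 and 121 CPM and fell by 0.82 ± 0.17. In the exon junction complex, which marks spliced mRNA, 3 of 5 core genes were called lower, against 2.13% of all genes. These were MAGOH (-0.65 ± 0.18), RBM8A (-0.56 ± 0.15) and MAGOHB (-0.31 ± 0.10). This group was also picked after its values were seen. RBM8A ran at 140 CPM in parental cells, 116 in the knockout, 171 with FH-WT and 116 with FH-5xA.

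Of 15 measured nuclear and polymerase III noncoding RNAs, 2 were called higher (RNY1 and NEAT1) and 1 lower (RNU4ATAC), with a median of 0.30. Over all genes 1.98% were called higher and 2.13% lower. RNY1, a Y RNA made by RNA polymerase III, ran at 8.81 CPM in parental cells, 3.86 in the knockout, 1.24 with FH-WT and 6.95 with FH-5xA and rose by 2.48 ± 0.57 (adjusted p = 0.00238). The 7 measured U5 spliceosomal RNA genes, a list drawn up after the values were seen, were all above 0 with a median of 0.66. RNU5B-1 (1.31 ± 0.31) and RNU5E-1 (0.85 ± 0.25) were called higher, against 1.98% of all genes. U5 genes are close copies, so how reads were split among them is uncertain. NEAT1, the nuclear scaffold RNA of paraspeckles, was higher at a substantial level: 52.6 CPM in parental cells, 90.2 in the knockout, 75.9 with FH-WT and 109 with FH-5xA, a rise of 0.52 ± 0.10 (adjusted p = 0.00027).

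Processed pseudogenes made up 86 of the 620 calls, with 28 higher and 58 lower among 1424 tested (6.04%), against 4.22% of protein-coding genes. Of 30 measured keratin pseudogenes, also listed after seeing the values, 7 were called higher, against 1.98% of all genes, and the median was 0.28. KRT18P13 stood at 0.97 ± 0.23 and KRT18P4 at 0.86 ± 0.20. The parent genes KRT8, KRT18 and KRT19 were not called (0.05 to 0.20). Among the lower ones were ATP5MKP1 (-0.99 ± 0.26) and SETP3 (-0.85 ± 0.20). Reads of such copies may come from the parent genes, so these values are uncertain.

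All 15 listed genes of the mitochondrial genome had differences below 0, with a median of -1.10. None passed the chi-square test, and their SEs were wide (median 0.51). MT-ND6 was nearest, at -1.29 ± 0.42 (adjusted p = 0.0514), followed by MT-ND3 at -1.03 ± 0.34 (adjusted p = 0.0533). MT-ND1 ran at 177 CPM in parental cells, 242 in the knockout, 967 with FH-WT and 311 with FH-5xA. At an unadjusted p under 0.05 these genes numbered 8 of 15. In nuclear genes for subunits of the same oxidative phosphorylation complexes the median was 0.06. There 1 of 30 was called (ATP5F1C, -0.25 ± 0.08), beside 4.11% of all genes. Leaving the mitochondrially encoded genes out of the test changed none of the 620 calls. That step only removed their p-values before the adjustment and left the fold changes and SEs of other genes as they were. It therefore cannot show whether mitochondrial RNA affected the values of other genes.

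Placed against the controls, the 620 called genes divided by which reconstituted line had left the knockout level. In the authors' deposited tables, where 10.1% of all genes were called for FH-WT and 11.3% for FH-5xA against knockout, 193 of the 620 were called in FH-WT only, 190 in FH-5xA only, 16 in both and 221 in neither. These comparisons share the FH-WT or FH-5xA libraries with the difference itself, on which the 620 were selected. Counts above the share over all genes therefore follow in part from that selection. None of the 620 was called against knockout in opposite directions in the 2 lines. The metallothioneins, H2BC14 and ELF3 belong to the first set, moved in FH-WT only; VIM, ZEB1, RBL1, QKI and MARVELD3 belong to the second, moved in FH-5xA only. Genes called higher had median values of -0.22 (FH-WT) and 0.31 (FH-5xA) against knockout in the authors' deposited tables; for genes called lower the authors' deposited tables gave 0.25 and -0.15. The fitted level was nearer to parental cells in FH-WT for 432 of the 620 and in FH-5xA for 188. The same split was not computed over all genes, so it cannot be read as particular to the called ones. Over all genes, the authors' deposited tables called 5180 for FH-WT and 6602 for FH-5xA against parental cells. Genes called higher had a median of 0.07 with FH-WT and 0.58 with FH-5xA against parental cells in the authors' deposited tables, while genes called lower had 0.04 and -0.37. Against knockout and against parental cells alike, the order of the 2 lines in these medians was fixed in advance. Genes had been called on the difference between the lines.

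The difference moved with transcript composition and length. Across deciles of 15027 genes ordered by GC content, the median difference was -0.02 in the lowest decile, -0.05 in the third and 0.20 in the highest, where 3.93% of genes were called higher and 0.266% lower. Across deciles ordered by transcript length it rose from -0.05 in the shortest to 0.06 in the longest. Genes called higher had a median GC content of 55.2% and those called lower 43.6%, against 47.8% over all. The Spearman correlation across genes, which share libraries and are not independent, was 0.27 for GC content and 0.14 for length. When differences were centred within bins of GC content and length, an alternative added after seeing the data, 349 genes were called, 182 higher and 167 lower, 301 of them among the 620. Of the genes named here, STAT3, PTCH1, ANLN, COL1A1, TJP3, CALR, DDIT3, H2BC7, H2BC11, CDC6, ALDOC, NKD1, IER2, FDXR, MAGOHB and ATP5F1C lost the call under that centring, and in the epithelial, ATF4, clustered histone and hypoxia lists 7, 4, 4 and 4 members kept or gained one. The part of composition and length in the differences was not tested.

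**Figure D5:**
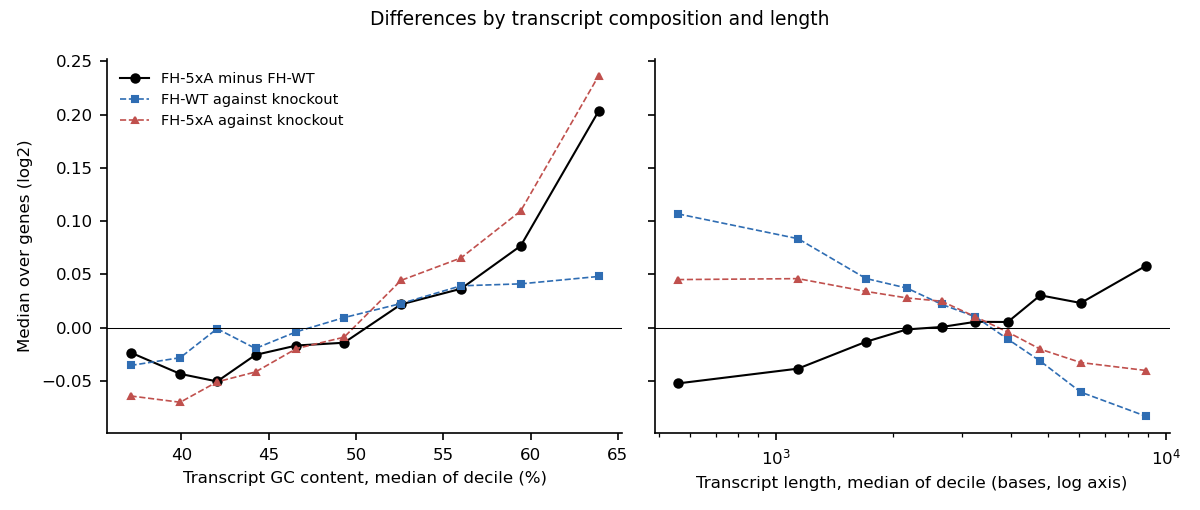
Median log2 value over deciles of all genes ordered by transcript GC content (left) and transcript length (right, log axis), for FH-5xA minus FH-WT and for each line against knockout. The black line rises to 0.20 in the decile richest in GC and from -0.05 to 0.06 over length.

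By position, the lines did not separate into large blocks. Over 261 nuclear windows of 10 Mb with at least 20 genes, medians ran from -0.13 (31 genes) to 0.26 (23 genes). On chromosome 7 the median was 0.00 over the 226 genes up to 50 Mb and 0.01 over the 454 genes beyond 70 Mb. Markers of other cell types gave little signal: 4 of 14 fibroblast markers were measured, with COL1A1 called higher at 4.99 CPM in FH-5xA against 2.89 in FH-WT, and 1 of 11 endothelial, 0 of 15 blood cell and 5 of 14 neural or embryonic kidney markers were measured with 0 called. Of 10 markers of the line itself 6 were measured; CDH1 was called and the other 5 were not.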

How the data were processed

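Total RNA of 12 HCT116 libraries was sequenced. Per the submitters' processing notes the authors used edgeR 3.8.6, featureCounts 1.4.6, Cufflinks 2.2.1 and TopHat2 2.0.12 with hg38/GRCh38; the sources used here do not name the annotation, strand setting, filter or normalization. Per the file headers, each of the 5 deposited tables gives for 15074 genes a log2 fold change, the mean log2 CPM, the likelihood ratio (a score), its p-value and the q-value (FDR). Depth per library is unknown. Count tests were planned only where counts were given, so none was run.

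The SE of each fold change was its absolute value over the square root of its score. The 5 squared SEs were solved by least squares for 4 group variances (median misfit 0.0135%), and 2 genes had no defined test. For FH-WT against knockout the deposited fold change was kept and only its SE was predicted from the other 4 tables. This gave 1511 calls, 1507 of them among the 1516 deposited. Because the squared SEs fit each other so closely, it checks the arithmetic of the SE and not the calls themselves. On simulated data of 15074 genes for FH-5xA against FH-WT, 61.0% of 100 genes changed by 0.5 and 94.0% of 100 changed by 1 (log2) were recovered, with 10 false calls of 165. The simulation assumed a depth per library and gave the test the true spread of each gene. Its false calls therefore cannot show how the chi-square reference behaves when the spread has to be estimated. Named genes were, among called genes of at least 1 CPM, the 15 that rose and the 15 that fell most, 11 core silencing genes, and up to 4 members of each list with the smallest p. The members, the 33 lists and this rule were chosen with earlier results of these data known. GENCODE 29 gave positions for 15029 genes and the UTRs; promoters and microRNAs are RefSeq's, with 29 of 30 microRNAs matched. Python 3.11.15, numpy 2.4.6, pandas 2.3.3 and scipy 1.17.1 were used.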

Additional observations from a re-analysis of the deposited data

Results flagged for a closer look

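In 16 genes both reconstituted lines differed from the knockout in the authors' deposited tables, in the same direction, and the lines also differed from each other by the derived chi-square test; the values are FH-5xA minus FH-WT (log2). Both lines lowered 4 genes and FH-5xA lowered them further: VSNL1 by a difference of -0.50, IL6R by -0.36, HMGA2 by -0.28 and PARP12 by -0.27. In 9 genes FH-WT lowered the level more than FH-5xA did: MYOF at 0.23, DENND5B at 0.27, TRIM2 at 0.34, MAL2 at 0.36, EMP1 at 0.40, LOXL4 at 0.58, MACC1 at 0.64, EHF at 0.83 and ITGB8 at 1.09. The remaining 3 were raised by both lines, TRIB3 (-0.38) and ASNS (-0.31) less by FH-5xA and DKK1 (0.41) more. After centring within bins of GC content and length, VSNL1 (Benjamini-Hochberg adjusted p = 0.0512) and MYOF (0.150) did not pass.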

How the results depend on the processing

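The 620 calls (299 higher, 321 lower) fell to 0 with the F reference, to 182 (97 and 85) at a false discovery rate of 0.01, to 105 (62 and 43) by Benjamini-Yekutieli adjustment and to 349 (182 and 167) after centring within GC and length bins (chosen after seeing the data), and rose to 1222 (561 and 661) at a rate of 0.1. A variance no smaller than that of genes of like expression gave 415, with 210 lower. Among genes of at least 10 CPM 508 were called, 183 of them higher, a share of 36.0% against 48.2% over all genes. Counts stayed within 1.5 times under non-negative variances (620), 1 variance for all groups (754), centring on the median (674), a minimum of 1 CPM (627), no mitochondrial genes (620) and protein-coding genes only (518, also chosen after seeing the data). Of the 150 named genes, 72 were called, and 19 of these lost the call after GC and length centring. Signs reversed for AGO1 (-0.0021 centred on the median, -0.0317 within bins), TNFAIP2 (-0.0604) and PAX2 (-0.0024) within bins, and for list medians of miR-17 targets (-0.0141) and NF-kB genes (-0.0193) within bins and, as weighted means, of mRNA decay factors (-0.0067), miR-200 (-0.0820), miR-29 (-0.0141), miR-34 (-0.0195) and YAP targets (0.0395); the cause was not tested. No paired analysis was possible because only comparison tables without values per library were used; for the same reason no replicate was left out. The median SE was 0.274 for genes under 1 and 0.0852 for genes at 6 or more (log2 CPM), so small differences of low genes were not detectable.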
